A study of Mus musculus with 24 samples.

Results

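The set described here comprised 10 genes chosen by name: Ccnd1, Ccnd2, and Ccnd3 (D cyclins), Ccne1, Ccne2, Ccna2, Ccnb1, and Ccnb2 (E, A, and B cyclins), Cdk1, and Cdkn1b. Of these, 9 had a row among the 23930 amplicons (1 amplicon each), and Ccnb1 was not analysed here. Cyclins are the regulatory subunits of cyclin-dependent kinases (CDKs), the enzymes that drive the cell cycle. D-type cyclins pair with CDK4 and CDK6 and link outside signals to passage through G1, cyclin E opens S phase with CDK2, cyclin A serves S phase and G2, and cyclin B with CDK1 drives mitosis. E, A, and B cyclins and Cdk1 are transcribed in waves in cycling cells, whereas D cyclin transcripts are also found in cells that do not divide. p27, encoded by Cdkn1b, is an inhibitor that holds cyclin E-CDK2 and cyclin A-CDK2 back and accumulates in quiescent cells. Ly6Chi monocytes are the immature, recently made blood monocytes, and Ly6Clow monocytes are their mature patrolling descendants.

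The study sequenced spleen monocytes of untreated C57BL/6 mice in 24 libraries, 4 for each of 2 subsets (Ly6Chi and Ly6Clow) in each of 3 genotypes. The genotypes were WT, Slc29a3-/- (a stop codon placed in exon 2 of the lysosomal nucleoside transporter gene by CRISPR), and Slc29a3-/- Tlr7-/- (the same with a small deletion in Tlr7, the gene of an endosomal sensor of RNA and nucleosides). Both mutant groups lacked Slc29a3, and both alleles were germline, so every cell of these mice carried them. WT mice were purchased and mutants were bred in house, so source and genotype cannot be told apart. The cells were gated as CD11b+ Ly6G- NK1.1- and split by Ly6C and Fcgr4, and the labels call them macrophages and give neither age nor sex. No label says that the 4 libraries of a group came from separate mice, so P-values measure the spread between these libraries, which may be technical.

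Values are reads per 1000000 reads of a library (RPM), and libraries held 12311037 to 14572266 reads, inferred from the RPM of 1 read. Levels were compared between groups and not between genes, because each amplicon amplifies with its own efficiency. The markers went with the gate: the 3 measured Ly6Chi monocyte markers summed to 1143 to 3445 RPM in Ly6Chi and 5.91 to 254 RPM in Ly6Clow libraries, and the 6 Ly6Clow markers, Fcgr4 of the gate among them, to 1346 to 4100 and 7916 to 17386 RPM. Slc29a3 was read at 127 to 174 RPM in Ly6Chi Slc29a3-/- and 163 to 225 RPM in WT libraries, and Tlr7 at 259 to 344 RPM in Ly6Chi Slc29a3-/- Tlr7-/- and 210 to 336 RPM in WT libraries, so transcript levels of these alleles do not check the genotype labels. WT replicates 1 to 3, whose barcodes run from 11 to 16, resembled each other more than other replicates did in the Ly6Chi subset (SD of log2 ratios 0.23 to 0.24 between them, 0.62 to 0.63 with WT replicate 4, and 0.31 to 0.98 within the mutant groups of both subsets). In both subsets they held 14237380 to 14572266 reads. All other libraries, WT replicate 4 included, held 12311037 to 13048399 reads and barcodes from 24 to 46. Depth, barcode range, and genotype cannot be told apart between WT replicates 1 to 3 and the mutants. In both subsets WT replicate 4 was also the only WT library with Y-linked reads and without Xist reads, so the WT replicates were not all from 1 mouse, and sex and other features of that library cannot be told apart. Genes of the set were therefore also compared with WT replicate 4 alone, and calls lost there are given. For the regulator and marker lists below no such comparison is given. In 3 libraries of Slc29a3-/- Tlr7-/- mice (Ly6Chi replicates 2 and 3 and Ly6Clow replicate 2), Xist and Y-linked genes were both read above 10 RPM. Some results of the set are also given without these libraries, and those of the regulator and marker lists are not.

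Promoter sequence bears on this set because E2F sites and the cell cycle homology region (CHR) are known elements of cell cycle promoters, the latter often beside CCAAT boxes. RefSeq start sites of the mm10 build (GRCm38.p6) were listed for 5 of the 9 genes, and no entry was used for Ccnd1, Ccnd2, Ccne2, and Ccna2. The sequences run from 150 bases before to 20 bases after the start on the gene's own strand and are those of the mitotic kinase and the B cyclin, which moved together in these data, and, for contrast, of an E cyclin, a D cyclin, and p27. Capitals mark matches on either strand to E2F (TTTCCCGC, TTTCGCGC, TTTGCCGC, TTTGGCGC), CHR (TTTGAA or its variant TTCGAA), or CCAAT.
Cdk1, chr10:69352893-69353062, minus strand: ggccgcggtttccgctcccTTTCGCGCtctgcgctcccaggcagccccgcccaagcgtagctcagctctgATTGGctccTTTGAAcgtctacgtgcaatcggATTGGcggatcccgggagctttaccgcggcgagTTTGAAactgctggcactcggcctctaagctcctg
Ccnb2, chr9:70421535-70421704, minus strand: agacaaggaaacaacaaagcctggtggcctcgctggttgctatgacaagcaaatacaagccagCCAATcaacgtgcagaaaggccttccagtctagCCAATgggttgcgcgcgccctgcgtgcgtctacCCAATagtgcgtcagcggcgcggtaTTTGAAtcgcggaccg
Ccne1, chr7:38107471-38107640, minus strand: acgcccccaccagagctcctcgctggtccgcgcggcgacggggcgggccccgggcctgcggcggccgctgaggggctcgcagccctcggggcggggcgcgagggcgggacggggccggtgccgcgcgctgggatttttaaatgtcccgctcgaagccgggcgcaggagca
Ccnd3, chr17:47593317-47593486, plus strand: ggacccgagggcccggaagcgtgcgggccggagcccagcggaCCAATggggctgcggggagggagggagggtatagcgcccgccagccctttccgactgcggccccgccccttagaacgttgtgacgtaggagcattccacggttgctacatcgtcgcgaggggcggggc
Cdkn1b, chr6:134920251-134920420, plus strand: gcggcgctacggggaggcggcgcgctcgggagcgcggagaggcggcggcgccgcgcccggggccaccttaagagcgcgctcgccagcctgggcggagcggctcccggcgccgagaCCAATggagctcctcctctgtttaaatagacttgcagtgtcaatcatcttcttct

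The Cdk1 window held 1 E2F match, 2 CHR matches, and 2 CCAAT boxes on the opposite strand (read as ATTGG), and the Ccnb2 window held 1 CHR match and 3 CCAAT boxes. The Ccnd3 and Cdkn1b windows held 1 CCAAT box each and neither of the other motifs, and no match was found in the Ccne1 window or in the window of a second Ccnd3 start at chr17:47504901-47505070. No match overlapped a match of another motif. Of 32851 promoter windows of the same length, 1.4% held an E2F match, 10.7% a CHR match, and 26.3% a CCAAT box. These matches are letters in a window and say nothing on whether a factor binds there.

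The first comparison asked how the set differed between the subsets. E, A, and B cyclins and Cdk1 were higher in Ly6Chi than in Ly6Clow monocytes in all 3 genotypes, Cdkn1b was lower in all 3, and no D cyclin was called higher in any. Calls required both a 1.5-fold change and an adjusted P under 0.05 (limma on log2[RPM + 1], Benjamini-Hochberg over 11042 genes). In WT, 5 of the 9 genes were called higher and 1 lower, relative to 17.5% and 8.46% of all genes tested. In Slc29a3-/- mice 5 were called higher and 3 lower (16.5% and 18.5% of all genes), and in Slc29a3-/- Tlr7-/- mice 5 higher and 2 lower (18.7% and 9.64%).

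**Figure D1:**
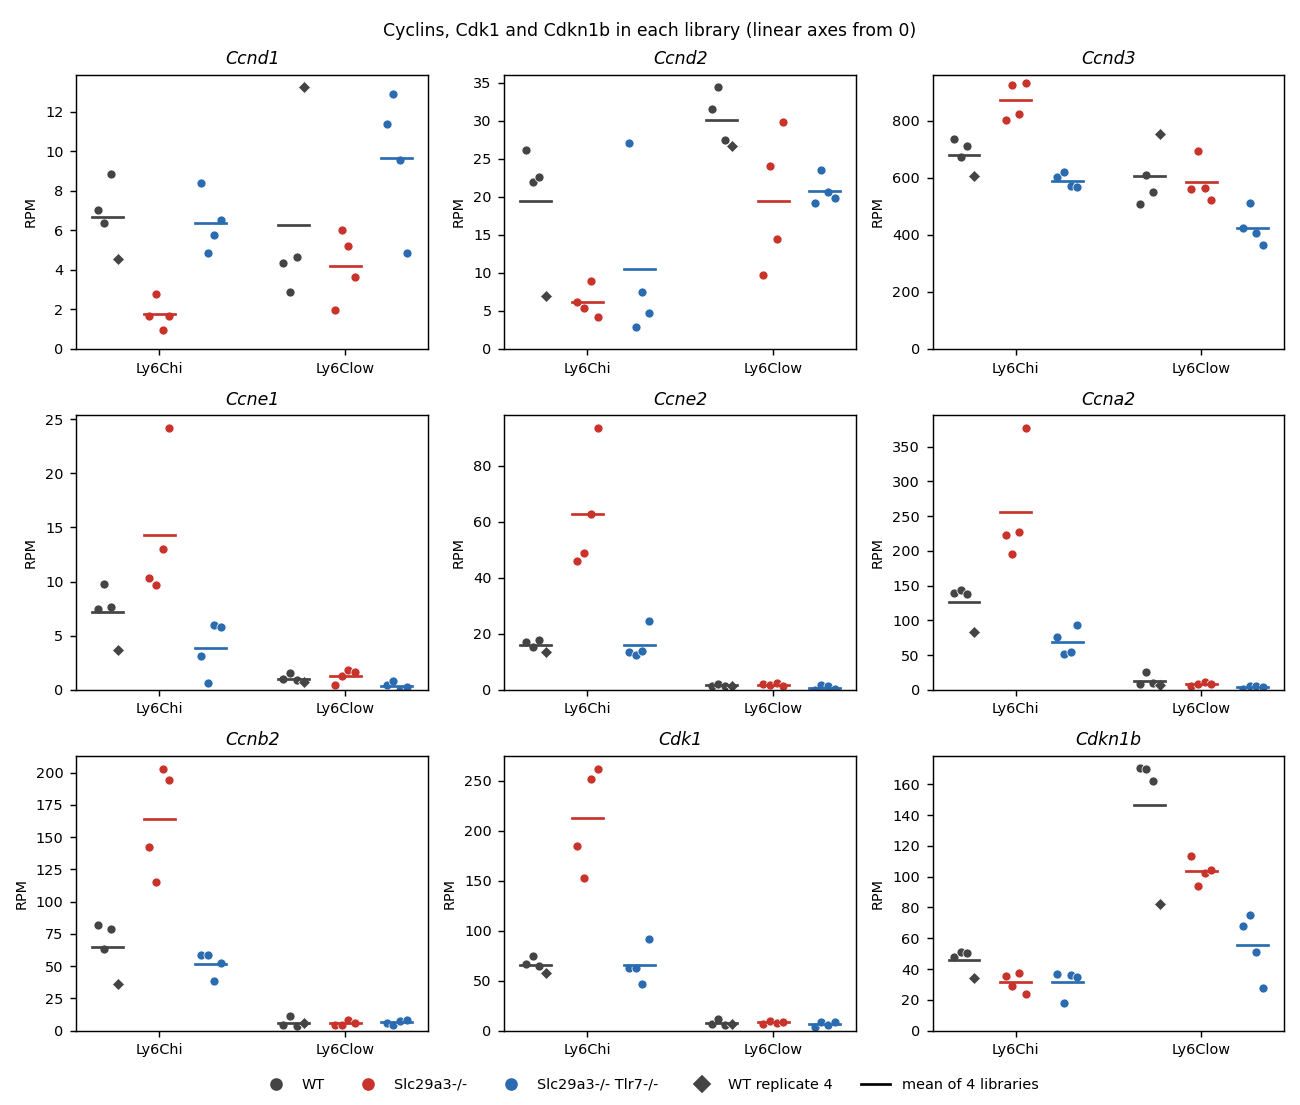
RPM of the 9 genes in each of 24 libraries (points, linear axes from 0), by subset and genotype, with the mean of 4 libraries (bars) and WT replicate 4 as a diamond. Cdk1, Ccne2, Ccna2, and Ccnb2 of all 4 Ly6Chi Slc29a3-/- libraries sit above those of the other groups, and Ccnd1 sits below the other Ly6Chi groups. Cdkn1b of WT and of Slc29a3-/- mice is higher in all Ly6Clow than in all Ly6Chi libraries, whereas the subsets of Slc29a3-/- Tlr7-/- mice overlap.

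Cdk1 (chromosome 10, 69335146 to 69352938, minus strand) encodes the mitotic kinase. In WT libraries it was read at 66.7, 74.6, 65.0, and 57.8 RPM in Ly6Chi and 6.29, 11.3, 5.55, and 6.36 RPM in Ly6Clow monocytes (replicates 1 to 4). The groups did not overlap, with a log2 fold change of 3.04 ± 0.24 (SE; adjusted P = 8.3e-10 from limma). The share of all genes without overlap between the subsets was not computed, here or for Cdkn1b below. The log2 fold change was 4.52 in Slc29a3-/- and 3.21 in Slc29a3-/- Tlr7-/- mice. Ccna2, encoding cyclin A2, had log2 fold changes of 3.39, 4.78, and 3.97 in WT, Slc29a3-/-, and Slc29a3-/- Tlr7-/- mice. Ccnb2, Ccne2, and Ccne1 had differences of 1.65 to 4.61 over the 3 genotypes. In Ly6Clow monocytes both cyclin E amplicons were near the lower limit, with 0 to 23 reads of Ccne1 and 0 to 29 of Ccne2, and their fold changes, computed on RPM + 1, understate the change of low levels. A count of 0 reads allows up to 0.244 RPM in any of the libraries, for counting error only.

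Cdkn1b (chromosome 6, 134920401 to 134925513, plus strand) went the other way. WT libraries held 47.9, 51.1, 50.1, and 33.9 RPM in Ly6Chi and 171, 170, 162, and 82.2 RPM in Ly6Clow monocytes. Every Ly6Clow WT library was above every Ly6Chi one, with a log2 fold change of -1.61 ± 0.27 (adjusted P = 5.9e-05 from limma). With WT replicate 4 alone in each subset the value was -1.25 and was no longer called (adjusted P = 0.24), and Ccne1 also lost its call there (log2 1.46, adjusted P = 0.40). The difference was -1.71 in Slc29a3-/- mice and -0.76 in Slc29a3-/- Tlr7-/- mice (adjusted P = 1.7e-05 and 0.036), and without the libraries that held both Xist and Y-linked reads the latter was -0.35 (adjusted P = 0.43). It was also not called without Ly6Chi replicate 2 or any 1 of Ly6Clow replicates 1 to 3 of that genotype (adjusted P = 0.062 to 0.15).

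D cyclins did not share the subset pattern. Ccnd3 differed little, with log2 fold changes of 0.18, 0.58, and 0.48 in the 3 genotypes, the last 2 with adjusted P of 0.0010 and 0.0066 but under the 1.5-fold limit. Ccnd2 was lower in Ly6Chi monocytes of Slc29a3-/- (-1.44, adjusted P = 0.010) and Slc29a3-/- Tlr7-/- mice (-1.34, adjusted P = 0.020). Ccnd1 was lower in Slc29a3-/- mice (-0.88, adjusted P = 0.044), a call lost without any 1 of 6 of the 8 libraries, with adjusted P of 0.067 to 0.14, and also with the replicate block (adjusted P = 0.060). The Ccnd2 call in Slc29a3-/- Tlr7-/- mice was lost without Ly6Chi replicate 2 (-0.97, adjusted P = 0.090) or replicate 4 (-1.15, adjusted P = 0.071), and it was -0.72 without the libraries that held both Xist and Y-linked reads. Ccnd3 in Slc29a3-/- mice passed the fold limit after scaling by median ratios (0.68) or without Ly6Chi replicate 1, Ly6Chi replicate 3, or Ly6Clow replicate 2 (0.60 to 0.66).

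**Figure D2:**
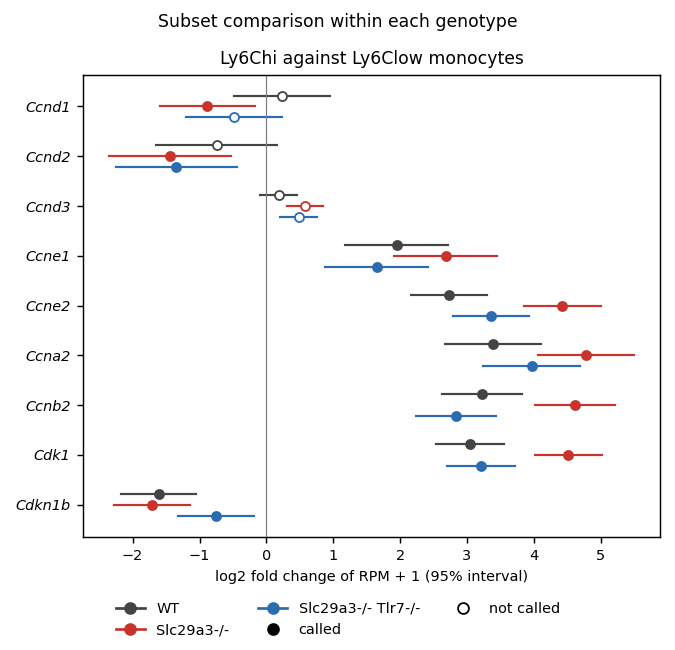
Log2 fold change of RPM + 1 between Ly6Chi and Ly6Clow monocytes for each gene and genotype, with 95% intervals. Filled points passed the fold change and adjusted P limits. The E, A, and B cyclins and Cdk1 lie between 1.65 and 4.78, D cyclins between -1.44 and 0.58, and Cdkn1b between -1.71 and -0.76.

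The second comparison asked what loss of Slc29a3 did to the set in Ly6Chi monocytes and whether it needed Tlr7. Relative to WT, Slc29a3-/- Ly6Chi monocytes had higher Ccne2, Ccna2, Ccnb2, and Cdk1 and lower Ccnd1. Of the 9 genes, 4 were called higher and 1 lower, relative to 8.15% and 14.3% of 10561 genes tested. Relative to Slc29a3-/- Tlr7-/- monocytes, 5 were higher (Ccne1 and the same 4 genes) and 1, Ccnd1, lower (9.0% and 8.22% of all genes). Between Slc29a3-/- Tlr7-/- and WT monocytes none of the 9 was called (0.312% of all genes higher and 1.11% lower), and at an unadjusted P under 0.05 Ccnd2 and Ccna2 were lower. The 3 comparisons share their libraries pairwise and are not independent. In these bulk libraries, fewer cells of a type and less RNA per cell cannot be told apart.

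Cdk1 in Slc29a3-/- libraries was read at 185, 153, 252, and 262 RPM, and in Slc29a3-/- Tlr7-/- libraries at 62.8, 62.7, 46.3, and 91.5 RPM. All 4 Slc29a3-/- libraries were above every other Ly6Chi library in Cdk1. Groups without overlap, in either direction, were common. They made up 33.7% of 10561 genes between Slc29a3-/- and WT and 21.3% between Slc29a3-/- and Slc29a3-/- Tlr7-/- Ly6Chi libraries. The WT and Slc29a3-/- Tlr7-/- ranges of Cdk1 overlapped. The log2 fold change was 1.65 ± 0.20 relative to WT (adjusted P = 1.7e-04) and 1.69 ± 0.20 relative to Slc29a3-/- Tlr7-/- monocytes (adjusted P = 1.4e-04, both from limma). The order of Cdk1 over the 6 groups was Ly6Chi Slc29a3-/- (213 ± 52.6 RPM; SD, n = 4), Ly6Chi WT (66.0 ± 6.90) and Ly6Chi Slc29a3-/- Tlr7-/- (65.8 ± 18.8), and then the 3 Ly6Clow groups at means of 6.33 to 8.21 RPM, whose libraries overlapped. The WT and Slc29a3-/- Tlr7-/- means of Ly6Chi monocytes differed by less than their spread.

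Ccne2 (chromosome 4, 11191351 to 11204779, plus strand), 1 of the 2 cyclin E genes, had the largest rise of the set relative to WT. It was read at 17.1, 15.3, 17.8, and 13.3 RPM in libraries of WT mice and 46.1, 48.7, 62.7, and 93.4 RPM in those of Slc29a3-/- mice. In Slc29a3-/- Tlr7-/- monocytes it was read at 13.4, 12.3, 13.8, and 24.6 RPM. Slc29a3-/- values did not overlap either group, with log2 fold changes of 1.87 ± 0.24 relative to WT (adjusted P = 2.2e-04) and 1.90 ± 0.24 relative to Slc29a3-/- Tlr7-/- monocytes (adjusted P = 1.6e-04, limma).

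Ccne1 (chromosome 7, 38097984 to 38107534, minus strand), the other cyclin E gene, was less clear. WT libraries held 7.49, 9.78, 7.63, and 3.67 RPM, and Slc29a3-/- libraries 10.3, 9.72, 13, and 24.1 RPM, so the groups overlapped. The log2 difference of 0.88 ± 0.43 was not called (adjusted P = 0.14, limma), but passed without Slc29a3-/- Tlr7-/- replicate 2 (adjusted P = 0.044) or with only the groups compared in the model (adjusted P = 0.045). Slc29a3-/- Tlr7-/- libraries held 3.16, 0.650, 5.94, and 5.77 RPM, all below Slc29a3-/- libraries (log2 fold change 1.76 ± 0.43, adjusted P = 0.0099).

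Ccna2 (chromosome 3, 36564865 to 36572150, minus strand) was read at 139, 144, 138, and 83.7 RPM in libraries of WT mice and 223, 196, 228, and 376 RPM in those of Slc29a3-/- mice, with no overlap. Slc29a3-/- Tlr7-/- libraries held 76.3, 51.7, 54.6, and 92.8 RPM, below WT replicates 1 to 3 but around WT replicate 4. The log2 fold changes were 1.00 ± 0.24 relative to WT (adjusted P = 0.0071) and 1.87 ± 0.24 relative to Slc29a3-/- Tlr7-/- monocytes (adjusted P = 1.6e-04). Between Slc29a3-/- Tlr7-/- and WT monocytes it was -0.87 (adjusted P = 0.070), and it was called without WT replicate 4 (-1.05, adjusted P = 0.011), Slc29a3-/- replicate 4 (adjusted P = 0.045), or Slc29a3-/- Tlr7-/- replicate 1 (-0.93, adjusted P = 0.049). Relative to WT replicate 4 alone it was -0.32.

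Ccnb2 (chromosome 9, 70407692 to 70421547, minus strand), a mitotic cyclin gene and partner of Cdk1, was read at 82.1, 63.6, 78.8, and 36.0 RPM in libraries of WT mice and 142, 115, 203, and 194 RPM in those of Slc29a3-/- mice. Slc29a3-/- Tlr7-/- libraries held 58.2, 58.7, 38.5, and 52.4 RPM. Slc29a3-/- libraries again lay above both other groups, by log2 1.35 ± 0.25 (adjusted P = 0.0017) and 1.62 ± 0.25 (adjusted P = 5.6e-04, limma).

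The D cyclins split. Ccnd1 (chromosome 7, 144929931 to 144939925, minus strand) was read at 7.01, 6.38, 8.82, and 4.52 RPM in libraries of WT mice, 1.67, 2.77, 0.951, and 1.67 RPM in those of Slc29a3-/- mice, and 8.39, 4.87, 5.78, and 6.50 RPM in those of Slc29a3-/- Tlr7-/- mice. Slc29a3-/- libraries lay below all others, on as few as 12 reads, with log2 fold changes of -1.48 ± 0.25 relative to WT (adjusted P = 0.0011) and -1.44 ± 0.25 relative to Slc29a3-/- Tlr7-/- monocytes (adjusted P = 0.0014, limma). Summed reads of 4 conventional dendritic cell markers (Zbtb46, Clec9a, Xcr1, and Flt3) went with it, at 9.85 to 14.8 RPM in Slc29a3-/-, 46.5 to 81.2 RPM in WT, and 50.04 to 67.3 RPM in Slc29a3-/- Tlr7-/- monocytes, with 4 of 4 called lower in Slc29a3-/- monocytes relative to each of the others and none below 1 RPM throughout any group. Their part in the Ccnd1 result was not tested.

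Ccnd2 (chromosome 6, 127125162 to 127152193, minus strand) was read at 26.2, 21.9, 22.6, and 6.94 RPM in libraries of WT mice, 6.21, 5.38, 8.88, and 4.21 RPM in those of Slc29a3-/- mice, and 27, 2.92, 7.52, and 4.73 RPM in those of Slc29a3-/- Tlr7-/- mice. Thus 4 libraries (WT replicates 1 to 3 and Slc29a3-/- Tlr7-/- replicate 1) were high and the other 8, all Slc29a3-/- libraries included, were low. The log2 difference of -1.41 ± 0.51 between Slc29a3-/- and WT missed the threshold (adjusted P = 0.053, limma). It passed without WT replicate 4 (-1.81, adjusted P = 0.013), without Slc29a3-/- Tlr7-/- replicate 1 or 2 (adjusted P = 0.012 and 0.031), or with only the groups compared in the model (adjusted P = 0.011), and was -0.19 relative to WT replicate 4 alone. Between Slc29a3-/- Tlr7-/- and WT monocytes it was called without Slc29a3-/- Tlr7-/- replicate 1 (-1.68, adjusted P = 0.029). The same 4 libraries had the highest sums of 4 NK cell markers, 362 to 592 RPM, relative to 6.01 to 95.6 RPM in the other 8, although NK1.1+ cells were removed before and during the sort. This was not particular to NK cells. The same libraries also had the highest sums of T cell markers (19.7 to 82.8 RPM, at most 12.5 RPM in the other 8). The same held for megakaryocyte and platelet markers (16.9 to 23.5 RPM, at most 10.8 RPM in the other 8). The part of these markers in the Ccnd2 result was not tested.

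Ccnd3 (chromosome 17, 47505051 to 47599691, plus strand) moved with the E, A, and B cyclins, by less. It was read at 736, 671, 710, and 605 RPM in libraries of WT mice, 801, 925, 824, and 933 RPM in those of Slc29a3-/- mice, and 601, 620, 571, and 568 RPM in those of Slc29a3-/- Tlr7-/- mice. Slc29a3-/- libraries were above all others, with log2 differences of 0.36 ± 0.11 relative to WT (adjusted P = 0.030) and 0.56 ± 0.11 relative to Slc29a3-/- Tlr7-/- monocytes (adjusted P = 0.0035), both under the 1.5-fold limit. The latter passed it after scaling by median ratios (0.66) or without Slc29a3-/- replicate 1 (0.60).

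Cdkn1b held 47.9, 51.1, 50.1, and 33.9 RPM in libraries of WT mice, 35.7, 29.1, 37.6, and 23.6 RPM in those of Slc29a3-/- mice, and 36.5, 18.0, 36.4, and 34.6 RPM in those of Slc29a3-/- Tlr7-/- mice. WT replicates 1 to 3 were above all mutant libraries, and WT replicate 4 was among them. The log2 differences from WT were -0.53 and -0.56 (adjusted P = 0.10 and 0.16, limma). The first was called without WT replicate 4 (-0.66). The mutant groups differed by 0.04 (95% interval -0.46 to 0.53).

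**Figure D3:**
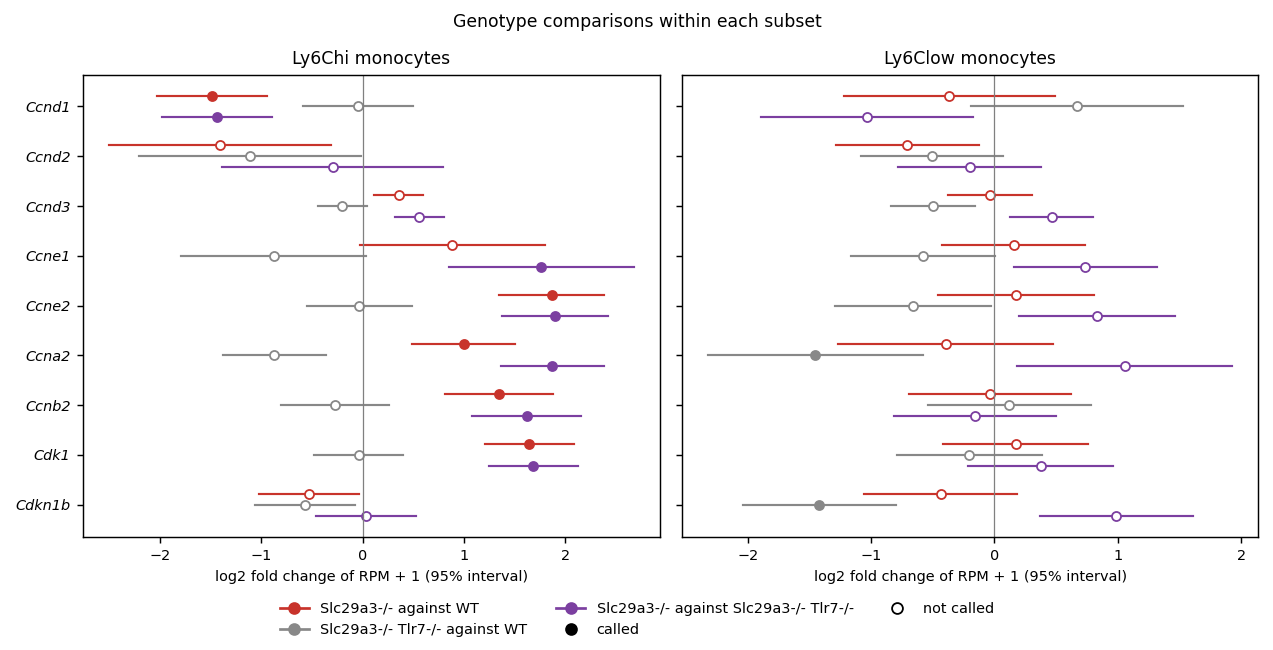
Log2 fold change of RPM + 1 of each gene in 3 genotype comparisons within Ly6Chi (left) and Ly6Clow (right) monocytes, with 95% intervals. Filled points were called. In Ly6Chi monocytes Ccne2, Ccna2, Ccnb2, and Cdk1 were called higher in both comparisons that start from Slc29a3-/- and Ccnd1 lower, and in Ly6Clow monocytes 2 points of the Slc29a3-/- Tlr7-/- comparison with WT were called, Ccna2 and Cdkn1b.

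Set side by side as medians, the 3 D cyclins changed by log2 -1.41 and the 4 E, A, and B cyclins by 1.17 between Slc29a3-/- and WT Ly6Chi monocytes, where the median of all genes tested was -0.14. Between Slc29a3-/- and Slc29a3-/- Tlr7-/- monocytes the medians were -0.30 and 1.82 (all genes -0.12), and between Slc29a3-/- Tlr7-/- and WT monocytes -0.20 and -0.57 (all genes -0.06). The D cyclin median of -0.30 was 0.27 without Slc29a3-/- Tlr7-/- replicate 1 and -0.67 without replicate 2, and the E, A, and B cyclin median of -0.57 was 0.029 relative to WT replicate 4 alone. Scaling by median ratios moved the first of the medians of all genes to -0.03. The D cyclin median rests on Ccnd1 and Ccnd2, since Ccnd3 had the opposite sign, and relative to WT replicate 4 alone it was -0.19, with 1.86 for the E, A, and B cyclins. Both D medians of Slc29a3-/- monocytes, -1.41 and -0.30, are the values of Ccnd2, which was not called. Per library, the mean log2 level of the E, A, and B cyclins minus that of the D cyclins was 1.07 to 2.29 in Ly6Chi Slc29a3-/-, -0.58 to -0.43 in WT, and -1.24 to 0.07 in Slc29a3-/- Tlr7-/- libraries. WT replicate 4 (-0.48) lay within the range of WT replicates 1 to 3 on this scale, being lower in both terms (4.90 for D and 4.42 for E, A, and B cyclins). In Ly6Clow libraries this difference was -4.44 to -2.62. The D term weighs the 3 genes alike, although Ccnd3 gave 94.4% to 99.4% of the D cyclin reads in Ly6Chi libraries. A lower D term in Slc29a3-/- libraries is therefore not a fall in most D cyclin reads.

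**Figure D4:**
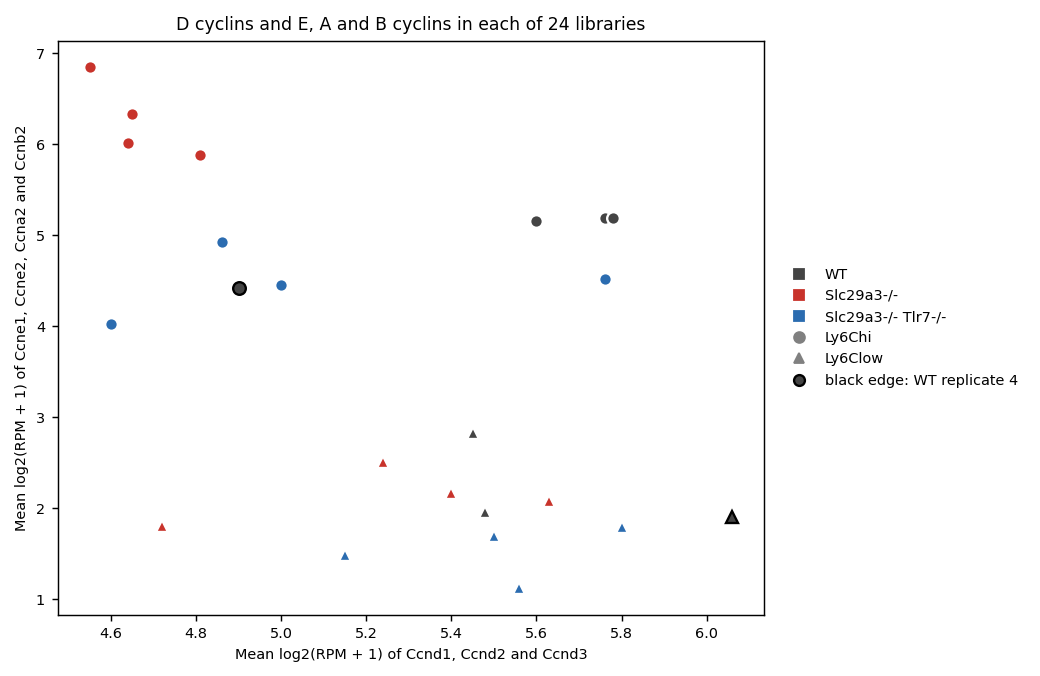
Mean log2(RPM + 1) of the 3 D cyclins (horizontal axis) and of the 4 E, A, and B cyclins (vertical axis) in each library, coloured by genotype, with Ly6Chi as circles, Ly6Clow as triangles, and WT replicate 4 with a black edge. The 4 Ly6Chi Slc29a3-/- libraries stand at 5.88 to 6.85 on the vertical axis, above all others, and at 4.55 to 4.81 on the horizontal axis. The horizontal axis weighs the 3 D cyclins alike, and Ccnd3 alone was higher in these libraries than in the other Ly6Chi groups.

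Relative to WT replicate 4 alone, with the spread taken from the remaining groups, 3 genes were called in Slc29a3-/- Ly6Chi monocytes: Ccne2 (log2 2.09, adjusted P = 0.034), Ccnb2 (2.12, adjusted P = 0.024), and Cdk1 (1.83, adjusted P = 0.030). Ccna2 (1.55, adjusted P = 0.061) and Ccnd1 (-1.04, adjusted P = 0.27) were not. Without the 2 Slc29a3-/- Tlr7-/- libraries that held both Xist and Y-linked reads, 5 genes were higher and 1 lower in Slc29a3-/- monocytes relative to the double mutant, as with them.

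Markers of granulocyte-monocyte progenitors, which divide, were mostly higher in Slc29a3-/- Ly6Chi monocytes than in the other genotypes, like the E, A, and B cyclins. Between Slc29a3-/- Tlr7-/- and WT monocytes the median log2 fold changes were 0.54 for the markers and -0.57 for these cyclins, with none of either called. The cyclin value depended on the WT libraries used, as given above. The 8 markers, Elane, Prtn3, and Ctsg among them, summed to 368 to 470 RPM in libraries of WT mice, 924 to 2972 RPM in those of Slc29a3-/- mice, and 389 to 966 RPM in those of Slc29a3-/- Tlr7-/- mice. Of the 8, 6 were called higher in Slc29a3-/- monocytes relative to each other group, and none was under 1 RPM in all libraries of a Ly6Chi group. Cd34 of this list was not higher, at means of 2.70 RPM in Slc29a3-/-, 3.28 RPM in WT, and 4.45 RPM in Slc29a3-/- Tlr7-/- libraries. The 9 neutrophil markers, S100a8 and S100a9 (also made by Ly6Chi monocytes) and Ngp included, summed to 24833 to 33722 RPM in libraries of WT mice, 76617 to 141758 RPM in those of Slc29a3-/- mice, and 13534 to 40671 RPM in those of Slc29a3-/- Tlr7-/- mice, although Ly6G+ cells were gated out. Of these 9, 7 were called higher and 1 lower relative to WT, and 8 higher and 1 lower relative to Slc29a3-/- Tlr7-/- monocytes. Slc29a3-/- replicate 2 had the lowest progenitor sum of its group (924 RPM) and also its lowest Cdk1, Ccna2, and Ccnb2, but not its lowest Ccne2. The library with the highest sum, replicate 3 (2972 RPM), had the highest Ccnb2 but not the highest Cdk1, Ccna2, or Ccne2, which were in replicate 4. In Slc29a3-/- relative to WT Ly6Chi monocytes, all tested markers were called lower for NK cells (4 of 4), T cells (3 of 3), plasma cells (3 of 3), plasmacytoid dendritic cells (2 of 2), erythroid cells (2 of 2), and B cells (1 of 1). Of red pulp macrophage markers 2 of 4 were lower, of megakaryocyte markers 0 of 3 were called, and none of either list was higher. The part of these markers in the cyclin results was not tested.

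The third comparison asked the same in Ly6Clow monocytes. Between Slc29a3-/- and WT none of the 9 genes was called (1.90% of 10317 genes higher and 2.53% lower), and at an unadjusted P under 0.05 1 gene, Ccnd2, was lower. Between Slc29a3-/- Tlr7-/- and WT, Ccna2 and Cdkn1b were lower and none higher (2.28% of all genes higher and 6.03% lower). Between Slc29a3-/- and Slc29a3-/- Tlr7-/- none was called (1.22% and 0.708%), and 5 passed an unadjusted P under 0.05, Ccne1, Ccne2, Ccna2, and Cdkn1b higher and Ccnd1 lower.

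Cdkn1b in Ly6Clow monocytes was read at 171, 170, 162, and 82.2 RPM in libraries of WT mice, 113, 94.2, 103, and 105 RPM in those of Slc29a3-/- mice, and 67.8, 75.1, 50.8, and 27.6 RPM in those of Slc29a3-/- Tlr7-/- mice. The double mutant lay below both other groups. Of 10317 genes, 12.3% did not overlap between the double mutant and WT and 11.9% between it and Slc29a3-/- libraries. Cdkn1b of WT replicate 4 fell under that of all Slc29a3-/- libraries. The log2 fold change was -1.42 ± 0.29 relative to WT (adjusted P = 0.015, limma) and -0.66 relative to WT replicate 4 alone (adjusted P = 0.52). It was no longer called without any 1 of WT replicates 1 to 3 (-1.33 to -1.35, adjusted P = 0.051 to 0.059).

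Ccna2 was read at 8.39, 25.9, 9.83, and 6.28 RPM in libraries of WT mice, 5.17, 8.48, 11.8, and 7.95 RPM in those of Slc29a3-/- mice, and 1.21, 4.92, 4.81, and 3.67 RPM in those of Slc29a3-/- Tlr7-/- mice. All 4 double mutant libraries were below WT, by log2 -1.45 ± 0.41 (adjusted P = 0.042, limma), but the call was lost without any 1 of 10 of the 12 libraries (adjusted P = 0.055 to 0.13), the exceptions being Slc29a3-/- Tlr7-/- replicate 2 and WT replicate 4. Without WT replicate 2 the value was -1.06, and relative to WT replicate 4 alone it was -0.75 (adjusted P = 0.56). WT replicate 2 also had the highest Cdk1 (11.3 RPM) and Ccnb2 (11.3 RPM) of the Ly6Clow libraries and the highest sums of neutrophil (2378 RPM) and progenitor markers (65.5 RPM) among them. Neutrophil markers summed to 63.6 to 2378 RPM in WT and 2.70 to 46.7 RPM in Slc29a3-/- Tlr7-/- Ly6Clow libraries, and the part of these markers was not tested.

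Ccnd1 in Ly6Clow monocytes was read at 4.33, 2.88, 4.64, and 13.3 RPM in libraries of WT mice, 1.99, 6.00, 5.21, and 3.65 RPM in those of Slc29a3-/- mice, and 11.4, 12.9, 9.55, and 4.87 RPM in those of Slc29a3-/- Tlr7-/- mice. The 3 groups overlapped, and WT replicate 4 stood far above WT replicates 1 to 3. Conventional dendritic cell markers summed to 10.7 to 20.9 RPM in Slc29a3-/-, 31.01 to 49.5 RPM in Slc29a3-/- Tlr7-/-, and 27.3 to 51.4 RPM in WT libraries, the last highest in WT replicate 4. Ccnd3 held 362 to 754 RPM over the 12 libraries and Ccnd2 9.78 to 34.5 RPM, with no call in any of these comparisons. Without Slc29a3-/- Tlr7-/- replicate 2, which held both Xist and Y-linked reads, Ccnd3 (-0.59) and Ccne2 (-0.89) were called lower in the double mutant relative to WT and Cdkn1b (1.16) higher in Slc29a3-/- than in Slc29a3-/- Tlr7-/- monocytes (adjusted P = 0.033, 0.049, and 0.044, limma). Ccnd1 was called higher in the double mutant relative to WT without WT replicate 4 (1.06, adjusted P = 0.048).

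The fourth comparison tested the difference itself, the genotype effect in Ly6Chi minus that in Ly6Clow monocytes. For Slc29a3-/- relative to WT, 3 of the 9 genes differed, all upward (4.11% of all genes higher and 4.65% lower): Ccne2 by log2 1.69, Cdk1 by 1.47, and Ccnb2 by 1.38 (adjusted P = 0.0073, 0.0077, and 0.035, limma). For Slc29a3-/- relative to Slc29a3-/- Tlr7-/-, Ccnb2 (1.78, adjusted P = 0.0080) and Cdk1 (1.31, adjusted P = 0.019) differed (4.53% and 4.41% of all genes). For Slc29a3-/- Tlr7-/- relative to WT none of the 9 differed (0.0272% and 0.0362%), and 1 gene, Cdkn1b, passed an unadjusted P under 0.05 (0.86). The difference of Ccna2 was 1.39 (95% interval 0.37 to 2.41) relative to WT and was not called (adjusted P = 0.081). Relative to WT replicate 4 alone none of the 3 was called, at 1.79, 1.52, and 2.17 for Ccne2, Cdk1, and Ccnb2 (adjusted P = 0.36, 0.30, and 0.087). The Ccnb2 difference relative to WT was also lost without any 1 of 8 single libraries (1.09 to 1.40, adjusted P = 0.056 to 0.085), Ly6Chi Slc29a3-/- replicates 3 and 4, Ly6Chi WT replicates 2 and 4, Ly6Clow Slc29a3-/- replicates 1, 2, and 4, and Ly6Clow WT replicate 2. Without Ly6Clow WT replicate 4, Ccna2 (1.63) and Ccnd1 (-1.50) were called as well. The Cdk1 difference relative to Slc29a3-/- Tlr7-/- was 0.93 (adjusted P = 0.11) without the libraries that held both Xist and Y-linked reads. It also lost its call without Ly6Chi Slc29a3-/- replicate 4 (1.2, adjusted P = 0.053) or Slc29a3-/- Tlr7-/- replicate 3 (1.16, adjusted P = 0.050). Without single libraries of Slc29a3-/- Tlr7-/- mice, Ccne2 (Ly6Chi replicate 4 or Ly6Clow replicate 1, 1.28 and 1.29) or Cdkn1b (Ly6Chi replicate 2, -1.19) differed as well.

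Regulators of cyclins and CDKs were examined as 4 lists. Their comparisons with WT rest on all WT libraries, and fits with WT replicate 4 alone are not given for them. Of 10 tested CDK partners and activators, 3 were higher and none lower in Slc29a3-/- relative to WT Ly6Chi monocytes, where 8.15% of all genes were higher and 14.3% lower: Cdc25a, a phosphatase that activates CDKs (79.7 to 239 RPM as group means, log2 1.55), Cks1b, a CDK-binding adaptor (60.0 to 137 RPM, 1.15), and Cdk2, the partner of cyclins E and A (171 to 333 RPM, 0.92). Cdk4, the partner of D cyclins, averaged 152 ± 13.4 RPM over the WT libraries and 155 ± 19.1 RPM over those of Slc29a3-/- mice (SD, n = 4; log2 difference 0.02, 95% interval -0.24 to 0.28). The median of the list was log2 0.68. Relative to Slc29a3-/- Tlr7-/- monocytes 5 of the 10 were higher, those 3 with Cdc25b (1.16) and Cdc25c (1.28), and none was lower (9.0% and 8.22% of all genes). The rise of Cdc25a, Cks1b, and Cdk2 relative to WT was larger in Ly6Chi than in Ly6Clow monocytes by log2 1.58, 1.46, and 1.10 (adjusted P = 0.0014, 0.0074, and 0.018, limma).

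Of 6 tested inhibitors and inhibitory kinases, 1 was higher and 1 lower in Slc29a3-/- relative to WT Ly6Chi monocytes, close to the shares of all genes (8.15% and 14.3%). Cdkn2c, encoding the INK4 inhibitor p18, rose from 35.6 to 82.8 RPM (group means; log2 1.2, adjusted P = 7.1e-04). Cdkn1a, encoding p21, was read at 179, 214, 190, and 57.6 RPM in libraries of WT mice and 46.7, 47.4, 27, and 48.0 RPM in those of Slc29a3-/- mice (log2 -1.78, adjusted P = 0.0026), so that WT replicate 4 was close to the mutants. It stood at 50.3 RPM in Slc29a3-/- Tlr7-/- monocytes (-1.55 relative to WT, adjusted P = 0.047). In Ly6Clow monocytes Cdkn1a was also lower in both mutants, at 59.0 and 60.1 RPM relative to 209 RPM in WT, with 74.8 RPM in WT replicate 4 (-1.65 and -1.65, adjusted P = 0.011 and 0.014, limma). Relative to Slc29a3-/- Tlr7-/- Ly6Chi monocytes, 3 of the 6 were higher in Slc29a3-/- monocytes (9.0% of all genes), namely Cdkn2c (1.52) and the kinases that hold Cdk1 inactive, Wee1 (1.49) and Pkmyt1 (1.47).

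Of 7 tested turnover factors, Ccnf, encoding the F-box protein cyclin F, was the only one called between Slc29a3-/- and WT Ly6Chi monocytes, from 22.1 to 85.4 RPM (log2 1.89, adjusted P = 6.3e-05), and 1 of 7 was close to the share of all genes (8.15% higher). Relative to Slc29a3-/- Tlr7-/- monocytes Ccnf (1.91) and Cdc20, an activator of the anaphase-promoting complex (1.83), were higher and Fbxl12 (-0.64) lower (9.0% and 8.22% of all genes). The Ccnf rise relative to WT was larger in Ly6Chi than in Ly6Clow monocytes by 2.12 (adjusted P = 0.0011, limma). Skp2, the F-box protein that targets p27 for degradation, was not called in Ly6Chi monocytes. In Ly6Clow monocytes its mean was 7.24 RPM over WT libraries, 11.6 RPM over those of Slc29a3-/- mice, and 2.89 RPM over those of Slc29a3-/- Tlr7-/- mice (log2 -1.18 for the last relative to WT and 1.78 for Slc29a3-/- relative to the last, adjusted P = 0.026 and 0.0036, limma). Of 10 other cyclins tested, none was higher and 2, the splicing-associated Ccnl1 (-1.39) and Ccnl2 (-0.59), were lower in Slc29a3-/- than in WT Ly6Chi monocytes, close to the 14.3% of all genes that were lower. Ccnl1 was read at 335, 341, 339, and 129 RPM in WT libraries and 82.8 to 117 RPM in Slc29a3-/- libraries, so WT replicate 4 was close to the mutants. Between Slc29a3-/- Tlr7-/- and WT Ly6Chi monocytes Cdkn1a was the only gene of the 4 lists to be called. In Ly6Clow monocytes Cdkn1a and Ccnl1 (-1.06; 288, 250, 279, and 163 RPM in WT libraries) were lower in Slc29a3-/- than in WT libraries, and none was higher (2.53% and 1.90% of all genes). There 3 of 6 inhibitors (Cdkn1a, Cdkn1c at -0.92, and Cdkn2d at -0.80) and 2 of 7 turnover factors (Skp2 and Cdc20 at -1.57) were lower in Slc29a3-/- Tlr7-/- than in WT libraries and none was higher (6.03% and 2.28% of all genes). Skp2 and Cdc25b (1.18) were higher in Slc29a3-/- than in Slc29a3-/- Tlr7-/- libraries (1.22% of all genes).

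**Figure D5:**
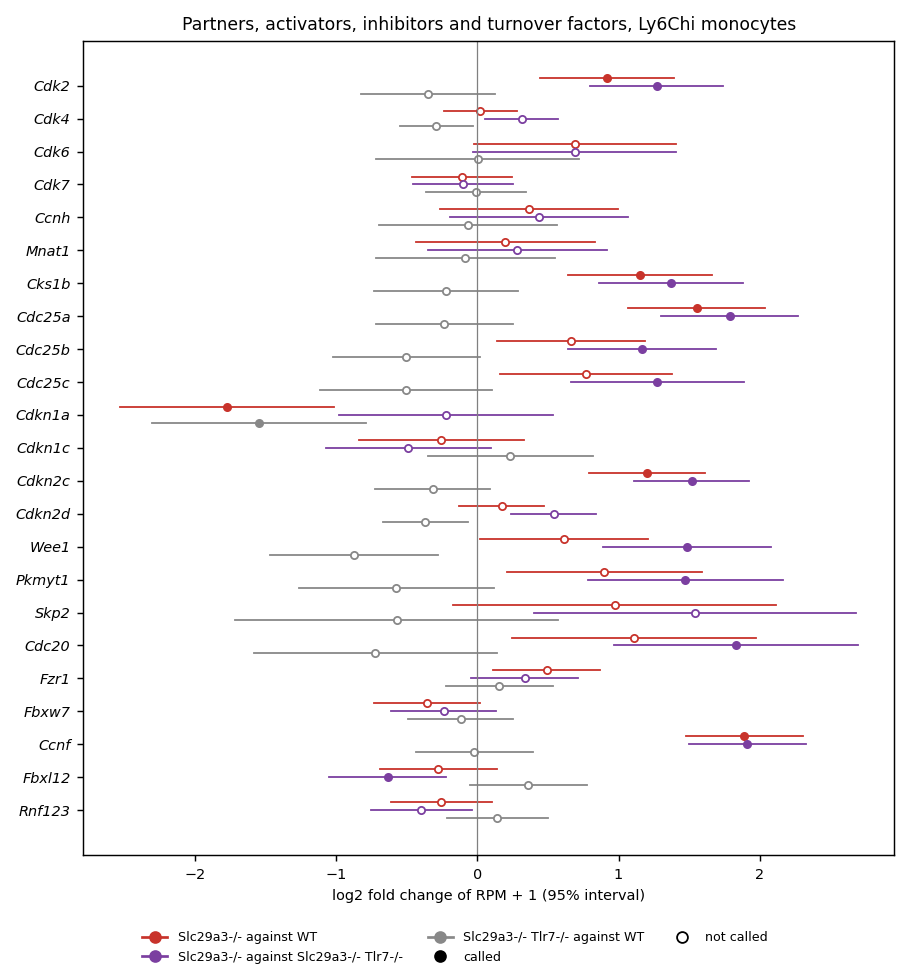
Log2 fold change of RPM + 1 of CDK partners and activators, inhibitors, and turnover factors in Ly6Chi monocytes, with 95% intervals and filled points for calls. Cdc25a, Cks1b, Cdk2, Cdkn2c, and Ccnf were called higher in Slc29a3-/- relative to both other genotypes, and Cdkn1a was lower in both mutants relative to WT.

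Genes with the most similar pattern were taken as the 5 with the highest Pearson r over the 24 libraries among 11042 genes, as a description, since libraries of a group share their condition. For Cdk1 they were Hmmr, Kif11, Cdca8, 2810417H13Rik, and Top2a (r = 0.990 to 0.993), and for Ccne1 Tyms, Cenpw, Apitd1, Cd63, and Ttk (0.956 to 0.973). For Ccnd1 they were Cd4, Apol7c, H2-DMb2, H2-Oa, and Dtx1 (0.806 to 0.851), for Ccnd2 Gm4956, Lncpint, Meis3, Ulk3, and Zfp318 (0.854 to 0.904), and for Ccnd3 Npepps, Hist4h4, Brd3, Gpd1l, and Cox5a (0.858 to 0.912). For Cdkn1b they were Runx2, Arhgef1, Ttc7b, Ddit4, and Slc44a2 (0.920 to 0.948).

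Within groups, deviations from the group mean over the 24 libraries went together for Ccna2 with Cdk1 (r = 0.76, rho = 0.72), Ccne2 (0.69, 0.70), and Ccnb2 (0.60, 0.56), and for Ccnb2 with Cdk1 (0.53, 0.53). Ccne2 with Cdk1 gave 0.54 and 0.47, and Ccne1 with Ccna2 0.51 and 0.61. Other pairs were looser, as Ccnb2 with Ccne1 (0.21, 0.23) and with Ccne2 (0.23, 0.30). Cdkn1b had values of 0.45 and 0.40 with Ccne1 and 0.43 and 0.42 with Ccnd2. Among D cyclins, Ccnd1 and Ccnd3 went together (0.70, 0.68), whereas Ccnd2 went with neither (0.28 and 0.12 in r). Cdkn1b and Cdk1, whose levels over the 24 libraries ran opposite (r = -0.72), had a correlation of -0.08 within groups, so the opposition lay between groups.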

How the data were processed

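RNA of sorted spleen monocytes (1 ng) was amplified with the Ion AmpliSeq Transcriptome Mouse kit and sequenced on an Ion Proton. The authors deposited 1 table of 23930 amplicons in RPM (reads per 1000000 reads of a library), with 0 reads written as 0.0001, which was set back to 0. The study names AmpliSeqRNA, Cutadapt, STAR, HTSeq, and DESeq2 with mm10, and which step wrote the table is not given in the sources used here. Since values were not counts, no count model was used. Samples were grouped by the subset and genotype in the labels. Genes that reached 1 RPM in 4 or more libraries of a model were tested on log2(RPM + 1) with limma 3.58.1 (R 4.3.3; intensity trend; 1 model of 12 libraries per subset, and 1 of 24 for comparisons across subsets), and all 9 genes passed this filter in every model. A call needed a fold change over 1.5 and a two-sided Benjamini-Hochberg adjusted P under 0.05 over all genes tested, 10561 in Ly6Chi, 10317 in Ly6Clow, and 11042 across subsets. The procedure was tested on simulated data. Reads per library (12311037 to 14572266) were inferred from the step between low values, so limits from 3 reads cover counting error only. The genes and lists were chosen with earlier results of these data known. All genes of the set were named, any gene of the regulator lists could be, and for 6 of the genes the 5 most similar by Pearson r. Alternatives covered scaling (median ratios), filter, pseudocount (0.1), libraries in the model, intensity trend, replicate block, unadjusted P, WT replicate 4 alone, and each library left out. Leaving out the libraries with both Xist and Y-linked reads was added after seeing the data. Deviations of same-numbered WT libraries of the 2 subsets correlated (r = 0.26 to 0.62), but not all of those of either mutant genotype did. Differently numbered libraries were not compared, so these values cannot show that replicate numbers pair the WT libraries. Sex-linked reads of same-numbered libraries matched across the subsets, except in Slc29a3-/- Tlr7-/- replicate 3. The main comparisons across subsets were unpaired. Gene positions are from GENCODE vM21 (mm10), and promoters from RefSeq.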

Additional observations from a re-analysis of the deposited data

Results flagged for a closer look

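Of 54 groups of 4 libraries, 6 held a library far from the other 3 (gap over range above Dixon's 95% critical value), and some such groups arise by chance. In WT they were Ccnd1 in Ly6Clow replicate 4 (highest, 13.3 RPM), Cdkn1b in the same library (lowest, 82.2 RPM), Ccna2 in Ly6Chi replicate 4 (lowest, 83.7 RPM), and Cdk1 in Ly6Clow replicate 2 (highest, 11.3 RPM). In Slc29a3-/- Tlr7-/- mice they were Ccne2 in Ly6Chi replicate 4 (highest, 24.6 RPM) and Cdkn1b in Ly6Chi replicate 2 (lowest, 18.0 RPM), the latter a library with both Xist and Y-linked reads.

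Of 27 genotype effects compared between the subsets, 5 differed. Relative to WT, the effect of Slc29a3-/- was larger in Ly6Chi than in Ly6Clow monocytes by log2 1.69 for Ccne2, 1.38 for Ccnb2, and 1.47 for Cdk1. Relative to Slc29a3-/- Tlr7-/-, it was larger by 1.78 for Ccnb2 and 1.31 for Cdk1.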

How the results depend on the processing

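Over the 2142 values recomputed for single genes, 1993 kept their call and direction, 58 lost a call, 33 gained one, 58 that were not called changed sign, and no called value reversed. Relative to WT replicate 4 alone, calls of the 9 genes were 3 in Ly6Chi Slc29a3-/-, with medians of -0.19 for D and 1.86 for E, A, and B cyclins, 0 in Ly6Clow Slc29a3-/- Tlr7-/-, and 0 for the difference between subsets of Slc29a3-/- relative to WT, and the E, A, and B median of Ly6Chi Slc29a3-/- Tlr7-/- was 0.029. At an unadjusted P, 2 genes were called in Ly6Chi Slc29a3-/- Tlr7-/- relative to WT, 1 in Ly6Clow Slc29a3-/- relative to WT, and 5 in Ly6Clow Slc29a3-/- relative to Slc29a3-/- Tlr7-/-. The count of 2 in Ly6Clow Slc29a3-/- Tlr7-/- relative to WT became 1 with scaling by median ratios, with no filter (more genes tested), or with a mean of at least 10 RPM (Ccna2 not tested), 0 with only these groups in the model, and 4 without the library with both Xist and Y-linked reads. The count of 0 in Ly6Clow Slc29a3-/- relative to Slc29a3-/- Tlr7-/- became 1 with all 24 libraries in 1 model or without that library. With a pseudocount of 0.1 the E, A, and B medians of these comparisons were -1.65 and 1.55, and the difference between subsets relative to WT kept 1 of 3 calls. The cause of changes not explained here was not tested.

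With each library left out in turn, calls ranged from 0 to 2 in Ly6Chi Slc29a3-/- Tlr7-/- relative to WT, from 0 to 4 in Ly6Clow Slc29a3-/- Tlr7-/- relative to WT, and from 0 to 1 in Ly6Clow Slc29a3-/- relative to Slc29a3-/- Tlr7-/-. For differences between subsets they ranged from 2 to 5 (Slc29a3-/- relative to WT) and from 1 to 3 (relative to Slc29a3-/- Tlr7-/-). The D cyclin median ranged from -0.67 (without Slc29a3-/- Tlr7-/- replicate 2) to 0.27 (without replicate 1) in Ly6Chi Slc29a3-/- relative to Slc29a3-/- Tlr7-/-, and from -0.60 to 0.021 (without WT replicate 4) in Ly6Clow Slc29a3-/- relative to WT. Cdk1, Ccne2, and Ccnb2 kept their calls in Ly6Chi Slc29a3-/- relative to WT under every alternative run, at log2 1.54 to 1.83, 1.66 to 2.10, and 1.09 to 2.12.

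Scaling by median ratios moved the share of calls that were higher from 36.4% to 49.2% in Ly6Chi Slc29a3-/- relative to WT and from 52.3% to 64.2% relative to Slc29a3-/- Tlr7-/-, and from 27.4% to 49.0% in Ly6Clow Slc29a3-/- Tlr7-/- relative to WT. Same-numbered libraries of a subset deviated together in 4 of 24 pairs (r over 0.1, range -0.19 to 0.15). Without differently numbered pairs for reference, these values neither show nor exclude that numbers pair libraries across genotypes. Across subsets, same-numbered WT libraries deviated together (all 4 pairs over 0.1, 0.26 to 0.62), but not all of Slc29a3-/- (-0.08 to 0.26) or Slc29a3-/- Tlr7-/- mice (-0.46 to 0.34). Differently numbered libraries were not compared, and WT replicate 4 stood apart in both subsets. The WT values therefore cannot show that numbers pair the libraries. Sex-linked reads of same-numbered libraries matched across the subsets. For example, Slc29a3-/- replicate 1 and WT replicate 4 held Y-linked reads in both. The exception was Slc29a3-/- Tlr7-/- replicate 3, with Xist at 109 RPM in Ly6Chi and 0 RPM in Ly6Clow. A match of sex does not show that both libraries came from the same mouse, and the main comparisons across subsets were unpaired. With the replicate block, 6 of the 9 genes (5 without it) were called in Ly6Chi Slc29a3-/- relative to WT and 7 (8 without it) between subsets in Slc29a3-/- mice, where Ccnd1 lost its call, and no WT call between subsets changed. Depth limits cyclin E in Ly6Clow monocytes, at 0 to 29 reads.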
